A study of Mus musculus with 16 samples.

Results

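The olfactory bulb of adult C57BL/6J mice was compared with whole brain, cerebellum and cortex by targeted RNA sequencing (CaptureSeq), in which oligonucleotide probes pull chosen cDNAs out of a library before it is sequenced. The olfactory bulb accounts for 2 of the 16 libraries of the study, 1 captured with probes for long noncoding RNAs (the lncRNA design) and 1 with probes for annotated splice junctions (the splice junction design). The comparison tissues account for 6 libraries, again 1 per tissue and design. All 8 brain libraries came from untreated wild-type tissue that was dissected in cold saline, snap frozen and extracted with TRIzol, and the 4 brain libraries of a design were hybridized together. The age beyond adult, the number of mice, and whether both captures of a tissue used the same RNA are not given in the sources used here, nor is whether the whole brain sample contained the olfactory bulb. Each tissue was sampled once per design, so there was no test over replicates. The other capture was the only check of a value, and a fixed fold served as the call. A gene was called higher or lower when its level in olfactory bulb differed by at least 1 on the log2(value + 1) scale (2-fold) from the mean of the 3 comparison tissues in both designs, in the same direction, and lay beyond each of the 3 tissues in both.

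The olfactory bulb is the first relay of the sense of smell. Axons of sensory neurons enter it from the nasal epithelium and contact the dendrites of mitral and tufted cells, the glutamatergic output neurons, in round synaptic fields called glomeruli. Most other neurons are GABAergic interneurons without a long axon. Periglomerular cells surround the glomeruli and include the dopaminergic neurons of the bulb. Granule cells form reciprocal synapses with the side dendrites of mitral and tufted cells. Both kinds of interneuron are replaced in the adult by neuroblasts that migrate in from the subventricular zone along the rostral migratory stream, and olfactory ensheathing cells wrap the incoming axons.

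Values are the fragments that Cuffnorm assigned to each transcript after scaling of the libraries, summed over the transcripts of a gene. They are not divided by length, so levels were compared only between tissues and never between genes. The olfactory bulb libraries held 19447862 (lncRNA) and 26858388 (splice junction) fragments, within the range of the comparison tissues in the first (18296877 to 20355272) and below it in the second (32435686 to 40761607). The whole brain library of the lncRNA design stood apart, with 31.9% of its fragments from the ERCC spike-in RNAs and 26.4% of the remaining fragments in single exon models. These shares were 9.02% and 52.2% in olfactory bulb, 14.8% and 48.5% in cerebellum and 16.3% and 41.3% in cortex. Spike-in mix 1 went into whole brain and cerebellum and mix 2 into cortex and olfactory bulb, and whole brain had 11 precapture PCR cycles where the others had 10. The median gene model was lower in olfactory bulb by 0.29 on the log2 scale in the lncRNA design and by 0.04 in the splice junction design, with a median of -0.65 against whole brain alone in the lncRNA design. Intervals given as ± are 95% counting intervals of a log2 difference and cover counting error only. In these bulk samples fewer cells of a type and less RNA per cell cannot be told apart.

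The label was checked against 6 markers of the bulb, of which 5 were called higher. Doc2g, Eomes and Cdhr1 mark mitral and tufted cells, and Th and Sp8 mark interneurons of the glomerular layer. Calb2, which encodes the calcium-binding protein calretinin, did not pass. Its values in the lncRNA design were 243 in olfactory bulb against 186 in whole brain, 309 in cerebellum and 5.61 in cortex, and in the splice junction design 661 against 256, 801 and 22.7. Olfactory bulb thus exceeded whole brain and cortex but lay below cerebellum, a tissue with calretinin-positive granule and unipolar brush cells.

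Among 11371 gene models whose values averaged 10 or more in each design, 617 (5.43%) were higher and 590 (5.19%) lower in olfactory bulb. The differences in the 2 designs had the same sign for 8597 gene models (75.6%) and correlated across genes with r = 0.816, where genes are not independent replicates and the points share libraries. Only 5 gene models moved by 1 or more in opposite directions. The balance of higher and lower calls depended on the scaling, with 816 higher and 443 lower after each library was centred on its median and 366 and 890 after quantile normalization. Without whole brain in the comparison 628 models were higher and 570 lower, of which 484 and 494 were among the calls with it. Of the 617 models higher in olfactory bulb, the next highest brain tissue was the same in both designs for 448, namely whole brain for 155, cerebellum for 128 and cortex for 165. Levels in olfactory bulb also exceeded those of heart, kidney, liver and the tissue labelled testis, whose label was not checked here, in both designs for 441 (71.5%) of the higher models. The same held for 251 (42.5%) of the 590 lower models. The share over all tested models was not counted, and the higher models were selected for high values in olfactory bulb.

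**Figure D1:**
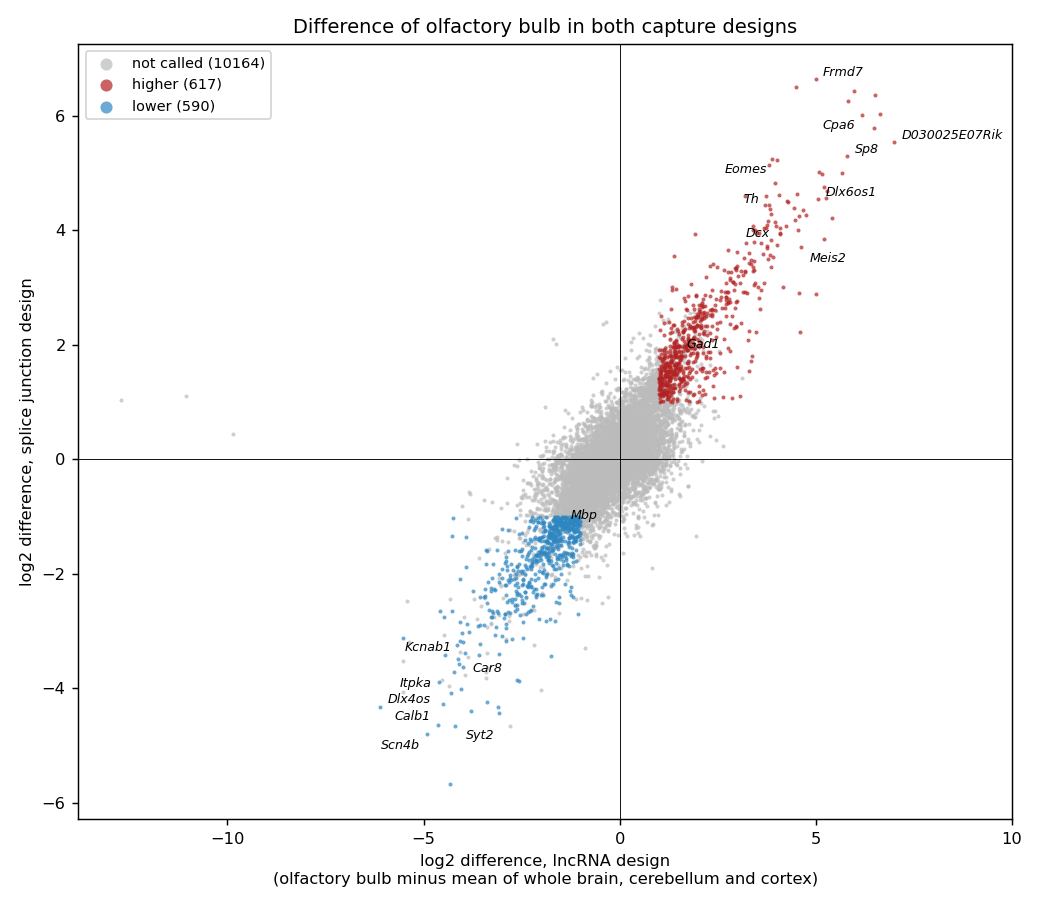
Each point is a gene model that passed the filter, placed by the log2 difference of olfactory bulb from the mean of whole brain, cerebellum and cortex, on the x axis for the lncRNA design and on the y axis for the splice junction design. The 617 models called higher lie at the upper right and the 590 called lower at the lower left, and 3 uncalled models lie beyond -9 on the x axis alone.

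Of 13 genes listed for the mitral and tufted cells, 9 passed the filter, 3 of them were higher and none was lower, beside 4.57% higher and 5.21% lower among the 10884 tested models with a GENCODE symbol. Doc2g encodes a protein with tandem C2 domains related to the Doc2 calcium sensors of exocytosis. Its value in the lncRNA design was 179.6 in olfactory bulb against 21.5 in whole brain, 5.77 in cerebellum and 5.51 in cortex. In the splice junction design the value was 6592 against 557, 167 and 122 in the same order, so olfactory bulb stood above the other brain libraries in both captures, by 4.18 ± 0.76 and 4.87 ± 0.08 on the log2 scale. Heart was close to olfactory bulb for this gene, at 119 and 6081. Doc2g was measured over its own transcripts, because its gene model also joins the neighbouring genes Gm49405 and Nudt8.

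Cdhr1, a cadherin-related protein known from photoreceptors and from mitral and tufted cells, had the largest difference of the list. It was 401 in olfactory bulb against 21.5 in whole brain, 0 in cerebellum and 2.81 in cortex in the lncRNA design and 14331 against 870.4, 61.0 and 93.0 in the splice junction design, a difference of 6.51 ± 1.20 and 6.38 ± 0.10. Nonbrain libraries did not exceed 11.4. Eomes (Tbr2) encodes a T-box transcription factor of mitral, tufted and intermediate progenitor cells, and in the cerebellum of unipolar brush cells. It was 94.0 in olfactory bulb against 11.7 in whole brain, 17.1 in cerebellum and 0 in cortex in the lncRNA design and 1624 against 124, 189 and 7.07 in the splice junction design, with cerebellum the next highest tissue in both. Tbx21, a T-box factor of adult mitral and tufted cells, was 12.4 against 1.96, 0 and 0 and 875 against 50.1, 4.22 and 4.83 in the same tissues, but its mean in the lncRNA design was under the filter.

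Of the other members, Reln, Tbr1, Slc17a6, Slc17a7, Ntng1 and Cck were tested and not called, and Lhx5, Barhl2 and Nmb did not pass the filter. Nmb was 22.5 in olfactory bulb against 6.07 in whole brain, 1.31 in cerebellum and 1.41 in cortex in the lncRNA design. In the splice junction design it was 35.9 against 3.47, 11.7 and 8.68, while Lhx5 and Barhl2 were highest in cerebellum in both. Ntng1 differed by 0.75 and 1.44 and Cck by -1.42 and -0.20. Reln, the secreted protein reelin, was 11589 in olfactory bulb against 3749.9 in whole brain, 12732 in cerebellum and 2435 in cortex in the splice junction design and 647 against 368, 790.3 and 185 in the lncRNA design, above whole brain and cortex and below cerebellum. Slc17a7 and Slc17a6, the vesicular glutamate transporters, had differences of -1.22 and -0.69 and of -1.17 and -0.66. Tbr1, a T-box factor of mitral cells and of deep layer cortical neurons, was 96.7 in olfactory bulb, 1186 in cortex and 10.5 in cerebellum in the lncRNA design. The 9 tested genes of the list had medians of 0.75 and 1.25 in the lncRNA and splice junction designs, beside -0.31 and -0.06 for all tested models with a symbol.

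Of 13 genes listed for periglomerular and dopaminergic interneurons 11 passed the filter, with 4 higher, 1 lower and medians of 1.72 and 1.52. Th encodes tyrosine hydroxylase, the rate-limiting enzyme of dopamine synthesis, and lies at chr7:142892744-142931128 (GRCm38) on the minus strand. Its value was 108 in olfactory bulb against 29.4 in whole brain, 6.56 in cerebellum and 1.40 in cortex in the lncRNA design and 4303 against 529, 163 and 63.2 in the splice junction design, with no fragment in any nonbrain library. Olfactory bulb was higher by 3.73 ± 1.11 and 4.60 ± 0.09, which rests on 78 and 10627 fragments in the lncRNA and splice junction libraries. The Th promoter is shown because the gene is a marker of the bulb and its promoter holds the cAMP response element for which it is known. The sequence is from RefSeq (GRCm38.p6, chr7:142899946-142900245, minus strand, 250 bases before to 50 after the start), and the capitals mark TGACGTCA, which reads the same on both strands and begins 45 bases before the start.
Th: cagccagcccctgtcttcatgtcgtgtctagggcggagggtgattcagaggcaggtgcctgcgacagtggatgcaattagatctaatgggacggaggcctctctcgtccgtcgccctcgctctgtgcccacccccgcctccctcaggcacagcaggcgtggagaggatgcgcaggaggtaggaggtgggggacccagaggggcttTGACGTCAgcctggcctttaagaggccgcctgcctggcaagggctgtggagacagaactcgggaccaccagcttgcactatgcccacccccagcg
The same letters occurred in 2.28% of the promoters of protein-coding genes called higher, 2.99% of those called lower and 3.01% of those of all tested protein-coding genes, and in 1.79% of all promoters in the table. The match is a description of the sequence only.

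Other genes of dopamine handling were not called. Ddc, the next enzyme of the pathway, was 699 in olfactory bulb against 1386 in whole brain, 378 in cerebellum and 431 in cortex in the splice junction design and was under the filter in the lncRNA design. Slc6a3, the dopamine transporter, was 681 against 445, 8.43 and 5.58 there but rested on 1 fragment of the olfactory bulb in the lncRNA design. Slc18a2, the vesicular monoamine transporter, was 128 against 225, 29.1 and 12.3 and 12.4 against 21.5, 7.88 and 8.42, so whole brain, which contains the midbrain dopaminergic nuclei, was the highest library. Gch1, which makes the cofactor of tyrosine hydroxylase, was highest in olfactory bulb among the brain libraries in both designs, with differences of 1.23 ± 0.36 and 0.93 ± 0.20, the second just under the threshold.

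Transcription factors of these interneurons were among the genes with the largest differences. Sp8, a zinc finger factor, was 106 in olfactory bulb against 1.96 in whole brain, 0 in cerebellum and 1.40 in cortex in the lncRNA design and 533 against 36.7, 3.83 and 13.0 in the splice junction design, with no fragment in a nonbrain library. Meis2, a TALE homeodomain factor, was 7159 against 1542, 31.5 and 491 in the lncRNA design and 673 against 145, 8.43 and 99.7 in the splice junction design, lowest in cerebellum in both. Trh, the precursor of thyrotropin-releasing hormone, was 49.7 against 11.7, 0 and 1.40 and 1895 against 381, 9.58 and 30.9, a difference of 4.02 ± 1.47 and 5.23 ± 0.22. Pax6, needed for dopaminergic periglomerular cells and expressed by cerebellar granule cells, was 1629.7 against 606, 3375 and 227 in the splice junction design and was not called. Etv1, another factor of these cells, was likewise highest in cerebellum. Calb1, which encodes calbindin, a marker of one class of periglomerular cells and of Purkinje cells, was lower in olfactory bulb than in every other brain library, 9.67 against 245, 692 and 108 in the lncRNA design and 218 against 4222, 15687 and 2483 in the splice junction design.

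The list for granule cells and regulators of the inhibitory lineage had 9 of 12 tested genes higher and none lower, with medians of 1.95 and 2.38. Dlx1, a homeodomain factor of forebrain inhibitory neurons, was 24530.2 in olfactory bulb against 7339 in whole brain, 74.8 in cerebellum and 4707 in cortex in the lncRNA design and 47.8 against 10.7, 0.767 and 9.67 in the splice junction design. Sp9, a relative of Sp8, was 5112 against 861, 18.4 and 239 and 36.8 against 5.50, 3.45 and 3.72. For both factors the order of the tissues was olfactory bulb, whole brain, cortex and cerebellum in the lncRNA design, with cerebellum again lowest in the splice junction design. Dlx2, Dlx5 and Dlx6 were under the filter in 1 or both designs, although olfactory bulb was highest in both. Dlx2 was 22.1 against 1.96, 0 and 1.40 in the lncRNA design and 289 against 37.9, 1.53 and 21.2 in the splice junction design.

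Pbx3, a TALE homeodomain partner of Meis proteins, was 202 in olfactory bulb against 27.4 in whole brain, 10.5 in cerebellum and 8.42 in cortex in the lncRNA design and 1519 against 35.0, 69.0 and 30.9 in the splice junction design, a difference of 3.80 ± 0.61 and 5.14 ± 0.16. Tshz1, a zinc finger factor needed for the radial migration of neuroblasts in the bulb, differed by 2.30 ± 0.33 and 2.61 ± 0.24. Synpr, the synaptic vesicle protein synaptoporin, was 452 against 174, 51.2 and 84.2 and 21685 against 4669, 2702 and 4218. Gad1 and Gad2, the enzymes that make GABA, were higher by 1.51 ± 0.16 and 1.88 ± 0.03 and by 1.27 ± 0.25 and 1.62 ± 0.04. The calls of Gad1 and Gad2 were lost with quantile normalization, and that of Gad2 also without cerebellum. Scgn, the calcium-binding protein secretagogin of bulb interneurons, had 28 fragments in olfactory bulb and none in the other brain libraries of the lncRNA design, where its mean was under the filter, and 5211 against 452, 23.4 and 36.4 in the splice junction design.

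**Figure D2:**
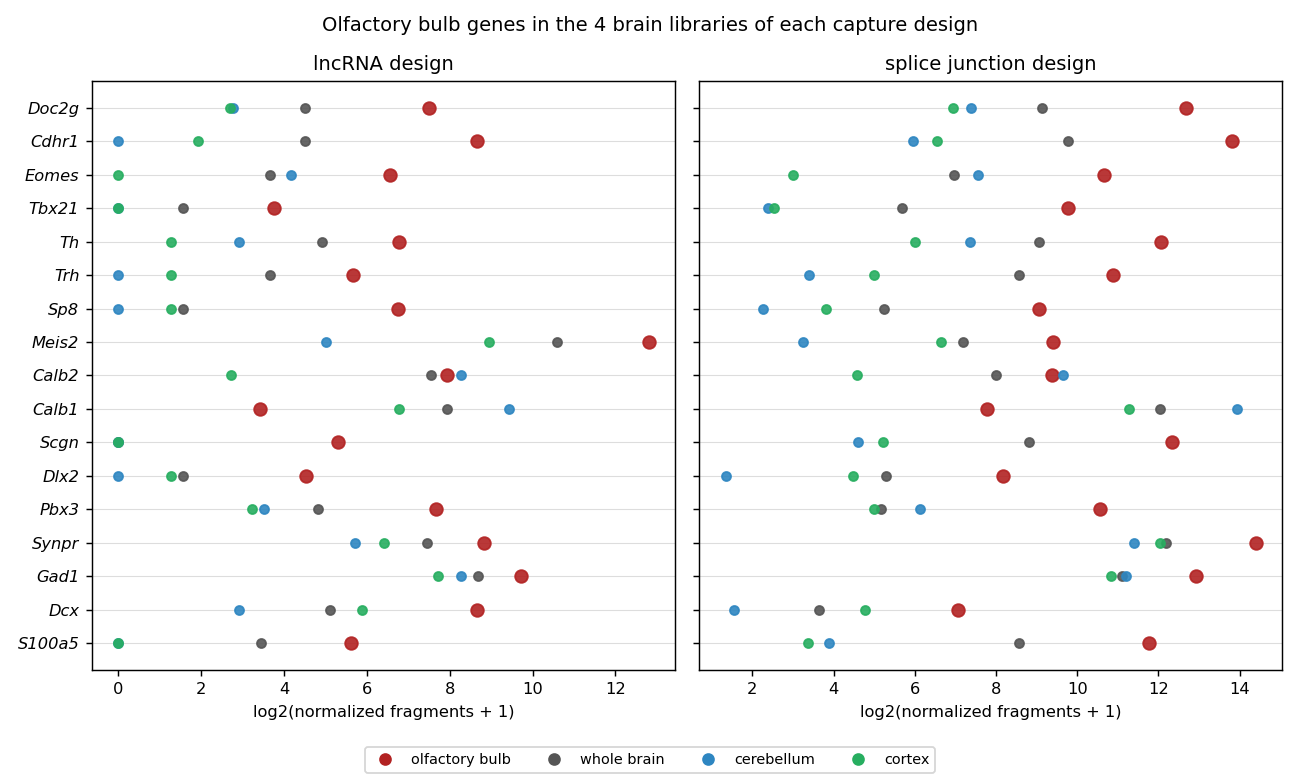
Each row is a gene of the output neurons, interneurons, neuroblasts or sensory axons of the bulb, and each point 1 library, on a log2(normalized fragments + 1) axis whose range differs between the lncRNA design (left) and the splice junction design (right). Olfactory bulb is the highest brain library for 15 of the 17 genes in both designs, while cerebellum exceeds it for Calb2 and all 3 tissues exceed it for Calb1. The genes were picked from the lists with earlier results known, so their count is not a result. Listed genes such as Reln, Slc17a7 and Gnal, for which another brain library was higher, are not drawn.

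Of 17 genes of migrating neuroblasts and progenitors 8 passed the filter, 3 were higher and 0 lower, with medians of 1.13 and 0.82. Among those not called, Stmn1 differed by -0.62 and -0.60 and Ccnd2 by -0.09 and -0.06. Nrep differed by 0.14 and -0.85, Egfr by -0.25 and 0.23 and Robo2 by 3.13 and 1.42. Dcx, the microtubule-binding protein doublecortin of migrating neurons, was 401 in olfactory bulb against 33.3 in whole brain, 6.56 in cerebellum and 57.5 in cortex in the lncRNA design and 134 against 11.6, 1.92 and 26.4 in the splice junction design, a difference of 4.02 ± 0.53 and 3.75 ± 0.49 with no fragment in a nonbrain library. Sox11 and Sox4, transcription factors of immature neurons, differed by 2.11 ± 0.82 and 1.59 ± 0.49 and by 2.90 ± 0.79 and 2.29 ± 0.57. The call of Sox11 was lost without cerebellum. Igfbpl1, a gene of neuroblasts, was under the filter, at 12.4 in olfactory bulb and 0 in the other brain libraries of the lncRNA design, and 5.26 against 0.289, 0 and 0 in the splice junction design. Prok2, a ligand that attracts neuroblasts, was under the filter in the lncRNA design, and its receptor Prokr2 in both designs. Prok2 was 132 against 10.4, 0.767 and 2.23 in the splice junction design and Prokr2 was 27.6 against 9.78, 0 and 0 in the lncRNA design. Genes of dividing cells were sparse, with Top2a at 6.88 against 5.79, 2.30 and 5.95 and Mki67 at 70.9 against 27.2, 6.52 and 28.3 in the splice junction design and 7 fragments of Mki67 in the olfactory bulb library of the lncRNA design.

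Of 10 olfactory ensheathing cell genes 9 were tested, with Fabp7 and Frzb higher and Aldh1a1 lower. Fabp7, a fatty acid-binding protein of radial glia and ensheathing cells, was 135 in olfactory bulb against 62.6 in whole brain, 22.3 in cerebellum and 2.81 in cortex in the lncRNA design and 61.9 against 11.6, 9.58 and 2.23 in the splice junction design. Frzb, a secreted antagonist of Wnt ligands, was 84.3 against 33.3, 2.63 and 15.4 and 4111 against 1014, 186 and 832. Aldh1a1, a retinaldehyde dehydrogenase, was 4879 against 49257, 40603 and 10482 and 4125 against 15225, 24854 and 6182. Npy, S100b and Sox10, which other brain cells also express, were not called. The summed level of the list was 40593 in olfactory bulb against 62074 in whole brain, 62494 in cerebellum and 39876 in cortex in the splice junction design. In the lncRNA design it was lowest in olfactory bulb, 6351 against 51882, 41964 and 11848. Aldh1a1 alone made up most of that sum in each library and had the same order of tissues, so the sum does not describe the other genes.

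S100a5, a calcium-binding protein of olfactory sensory neurons, was the 1 gene of 6 tested that was higher in the list for these neurons and their epithelium. It was 48.4 in olfactory bulb against 9.78 in whole brain, 0 in cerebellum and 0 in cortex in the lncRNA design and 3483 against 375, 13.8 and 9.30 in the splice junction design, a difference of 4.48 ± 1.48 and 6.50 ± 0.25. The medians of the 6 genes were -0.53 and -0.07. Gng13 (-1.16 and -0.46), Adcy3 (-0.33 and -0.02), Cnga4 (-0.72 and 0.96) and Ric8b (1.08 and -0.12), all of olfactory signalling, were tested and not called. The remaining genes of the list were not tested, and some of them were higher in the splice junction design. Stoml3, an olfactory cilium protein, was 976 against 117, 19.2 and 7.07 there. The olfactory cytochrome P450 Cyp2g1 was 423 against 67.4, 1.53 and 2.23 there, and Cnga2, a subunit of the channel that opens during olfactory signalling, was 211 against 27.8, 9.97 and 14.5. Gnal, the G protein of olfactory signalling that striatal neurons also express, was lower in olfactory bulb, 24.9 against 186, 76.1 and 92.6 and 194 against 600.4, 299 and 409, a call that was lost without whole brain. The summed level of the 17 measured genes was 9677 in olfactory bulb against 5931 in whole brain, 4711 in cerebellum and 3597 in cortex in the splice junction design and 4162 against 1520.3, 3064 and 3094 in the lncRNA design, where Ric8b alone was 3858 against 851, 2778 and 2571 and made up most of the sum. Gng8, Rtp2, Bpifb9a and Muc2 had no fragment in the olfactory bulb library of the lncRNA design, and Omp had no transcript of its own in the assembly. The part of epithelial RNA in these values was not tested.

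Olfactory receptor genes, which each sensory neuron expresses singly, were close to the floor of detection. Of 491 models of a single Olfr gene none passed the filter. In olfactory bulb 40 (lncRNA) and 48 (splice junction) of them had a fragment, against 10 and 19 in whole brain, 6 and 8 in cerebellum and 7 and 11 in cortex. In the splice junction design these were 692 fragments in olfactory bulb, 72 in whole brain, 15 in cerebellum and 84 in cortex. In the lncRNA design olfactory bulb was not the highest library, with 132 fragments against 154, 12 and 254.

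The 15 protein-coding genes with the largest mean difference upward, among 226 called models of a single GENCODE symbol with a value of at least 50, included the regulators Sp8, Pbx3, Eomes and Meis2 and the enzyme Th. Genes in joined models, such as Cdhr1 and Doc2g, whose differences would place them in this ranking, are not part of it. The first was Adamts19, a secreted metalloprotease with thrombospondin motifs, at 803 in olfactory bulb against 43.0 in whole brain, 3.94 in cerebellum and 8.42 in cortex in the lncRNA design and 6212 against 144, 33.0 and 74.4 in the splice junction design, a difference of 5.98 ± 0.71 and 6.43 ± 0.13. Cpa6, a secreted carboxypeptidase (chr1:10296218-10719945, minus strand), was 4235 against 239, 14.4 and 53.3 and 5401 against 329, 26.5 and 63.2. Frmd7, a FERM domain protein whose human gene is mutated in congenital nystagmus, was 152 against 15.7, 0 and 5.61 and 9129 against 302, 38.3 and 64.0. Whole brain was the next brain library for all 3 genes in both designs. Outside the brain Adamts19 reached 71.6 and 255 in heart, and Cpa6 765 and 928 in the tissue labelled testis. These values exceeded those of every comparison tissue of the brain. Frmd7 did not exceed 43.3 in a nonbrain library.

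Trdn, the muscle protein triadin, was 131 against 11.7, 0 and 0 in the lncRNA design and 1039 against 50.1, 6.13 and 5.95 in the splice junction design among the brain tissues, but 3520.4 and 37293 in heart. Lgr6, a receptor for R-spondins, was 5182 against 392, 441 and 213 in the splice junction design, with 2823 in heart. Slco5a1, of the organic anion transporter family, was 396 against 30.7, 24.2 and 25.7 there, with 343 in heart. Heart thus exceeded every comparison tissue of the brain for these 3 genes, as it did for Adamts19. Zar1, known as a maternal-effect gene of the oocyte, was 259.8 against 33.3, 0 and 5.61 in the lncRNA design and 119 against 15.9, 2.68 and 3.35 in the splice junction design, and no nonbrain library exceeded 1.69. Shisa3, of a family that in Xenopus retains Wnt and FGF receptors in the endoplasmic reticulum, differed by 3.89 ± 1.24 and 5.24 ± 0.27. Ptpro, a receptor-type tyrosine phosphatase, differed by 3.69 ± 0.52 and 4.45 ± 0.12, and Gng4, a gamma subunit of heterotrimeric G proteins, by 3.95 ± 0.43 and 4.14 ± 0.47.

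Of 35 tested genes of GABA and glutamate transmission 5 were higher and 2 lower, with medians of -0.13 and 0.05. Besides Gad1 and Gad2, the higher genes were Slc6a11, a GABA transporter of astrocytes, Gabra5, a GABA-A receptor subunit, and Grik3, a kainate receptor subunit whose call was lost with quantile normalization, without cerebellum and with a pseudocount of 10. Gabra5 was 170.0 in olfactory bulb against 80.2 in whole brain, 2.63 in cerebellum and 47.7 in cortex in the lncRNA design and 3602 against 1227, 44.9 and 1218 in the splice junction design. Slc6a11 was 345 against 331, 31.5 and 88.4 and 10355 against 5403, 862 and 1954, so olfactory bulb and whole brain differed little in the lncRNA design, and its call was lost with quantile normalization. Gabrd, another GABA-A receptor subunit, was lower, with differences of -1.74 ± 0.59 and -1.65 ± 0.05. Of the NMDA receptor subunits none was called, and Grin2b was 3252 against 2484, 159 and 4676 in the splice junction design, below cortex. Of 8 tested neuropeptide genes Trh alone was called. Sst, the precursor of somatostatin, was 1.38 against 80.2, 0 and 70.2 in the lncRNA design, where olfactory bulb had 1 fragment, and 3.64 against 29.2, 1.92 and 32.7 in the splice junction design.

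Of 14 tested genes for calcium-binding proteins and transmitter release, 2 were higher and 7 lower. Syt10, a synaptotagmin that in mice controls the release of IGF-1 from bulb neurons, was 71.9 in olfactory bulb against 35.2 in whole brain, 18.4 in cerebellum and 14.0 in cortex in the lncRNA design and 9999 against 1793, 1260.2 and 1171 in the splice junction design. Igf1, its cargo, was 34.5 against 15.7, 3.94 and 30.9 and 249.8 against 56.1, 37.2 and 54.7, and was called as well, although olfactory bulb and cortex were close in the lncRNA design and the call was lost without cerebellum. Syt2, a synaptotagmin of fast synapses, was lower, 8.29 against 162, 391 and 75.8 and 138 against 2875, 9179.7 and 1645, as was Pvalb, which encodes parvalbumin, at 11.1 against 176, 273 and 47.7 and 288 against 5997, 24086 and 3008. The neuronal calcium sensors Hpca and Ncald, the C2 domain protein Doc2b and the complexin Cplx2 were lower too, with differences of -2.80 (Hpca) to -1.53 (Doc2b) in the lncRNA design. Of 18 tested axon guidance genes, Sema3c, Epha5 and Igf1 were higher and Sema7a and Epha7 lower, both calls that were lost without cortex. Sema3c, a secreted semaphorin, and Epha5, an ephrin receptor, differed by 2.29 ± 0.65 and 2.21 ± 0.05 and 2.34 ± 0.42 and 2.60 ± 0.10, while the receptors Robo1, Nrp1 and Nrp2 and the ligands Slit1 and Sema3a were not called. Robo2, the Slit receptor of mitral cells and neuroblasts, was highest in olfactory bulb in the lncRNA design, 670.1 against 76.3, 17.1 and 323, and level with cortex in the splice junction design, 17.0 against 10.7, 0.383 and 17.9. These values are those of the gene model at chr16:73894664-73907470 (minus strand). Whether it covers the whole gene was not checked.

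Most genes of the cerebellar list and several of the cortical and striatal lists were low in olfactory bulb. Of the cortical projection neuron list, the transcription factors Neurod6 and Fezf2 had no fragment in the olfactory bulb library of the lncRNA design. Fezf2, a zinc finger factor of deep layer neurons, was 0 against 19.6, 0 and 26.7 in the lncRNA design and 5.67 against 74.9, 1.15 and 170.3 in the splice junction design, and since olfactory bulb was not below cerebellum it did not meet the rule. Neurod2, shared with cerebellar granule cells, was the 1 gene of 12 tested that was called lower, 8.29 against 43.0, 70.9 and 50.5 and 0.405 against 12.4, 31.4 and 19.0. The list also holds genes that bulb neurons express. Camk2a, a calcium-dependent kinase of excitatory and granule cells, was 9267 against 15554, 729.6 and 21987 and Bcl11b, a factor of inhibitory lineages as well, was 60.3 against 30.7, 0.383 and 27.5 in the splice junction design. Without cerebellum in the mean, 8 of the 12 genes were lower.

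All 13 tested genes of cerebellar neurons had negative differences in both designs, and 4 met the rule. Car8, a carbonic anhydrase-related protein of Purkinje cells, was 12.4 in olfactory bulb against 315 in whole brain, 1305 in cerebellum and 22.5 in cortex in the lncRNA design and 601 against 8658, 61485 and 762 in the splice junction design. Itpr1, the inositol trisphosphate receptor of Purkinje cells, was 159 against 1847, 3514 and 1055 and 8969.6 against 47912, 144724 and 43309. Slc1a6, a glutamate transporter of Purkinje cells, was 8.08e-11, which stands for 0 fragments, against 38.8, 152 and 11.8 in the lncRNA design (-5.42 ± 2.86). In the splice junction design it was 222 against 1359.8, 5916 and 286. It was measured over its own transcripts, because its gene model also joins Gm30400. Pvalb, described above with the calcium-binding proteins, was the fourth. The other 9 were not below cortex in both designs, such as Gabra6, a GABA-A receptor subunit of cerebellar granule cells, at 300.4 against 5803, 62247 and 231 in the splice junction design, and all 13 were called without cortex in the comparison. En2, which patterns the midbrain and cerebellum, had no fragment in olfactory bulb in either design. The summed level of the list was 239 in olfactory bulb against 3068 in whole brain, 10099 in cerebellum and 1161 in cortex in the lncRNA design.

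Of 7 tested striatal genes, Ppp1r1b (DARPP-32, a phosphatase inhibitor of dopamine signalling) and Pde10a (a cyclic nucleotide phosphodiesterase) were lower. Ppp1r1b was 99.5 against 2162, 743 and 582 and 25.5 against 249, 192 and 116, and the call of Pde10a was lost without whole brain. Of 18 genes of midbrain, hindbrain, thalamus and hypothalamus, Tcf7l2 alone passed the filter and was not called (-0.17 and 0.90). In the lncRNA design 14 of them had no fragment in olfactory bulb, 15 none in cortex and 12 none in cerebellum. Chat, the enzyme that makes acetylcholine, was 3.64 against 431, 8.05 and 52.8 in the splice junction design. Slc6a5, the glycine transporter of hindbrain neurons, was 11.3 against 1236, 1405 and 9.30 there, with olfactory bulb close to cortex. Of 5 tested patterning regulators 1 was lower. Id4, an inhibitor of basic helix-loop-helix factors, had differences of -1.17 ± 0.13 and -1.25 ± 0.55, a call lost with median centring and without whole brain or cerebellum.

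The 15 protein-coding genes with the largest negative difference, among 354 called models of a single GENCODE symbol with a value of at least 50, included Calb1, Syt2 and Car8. Pvalb, in a joined model, is not part of this ranking although its difference would place it there. Tbata, a gene of thymus, brain and testis, was first, with 1.38 in olfactory bulb against 23.5 in whole brain, 245 in cerebellum and 16.8 in cortex in the lncRNA design and 4.45 against 152, 1082 and 129 in the splice junction design. Scn4b, a beta subunit of sodium channels that aids fast repetitive firing, was 2.76 against 196, 72.2 and 101 and 80.2 against 3406, 1642 and 2091. Itpka, an inositol trisphosphate kinase of dendritic spines, was 2.76 against 147, 38.1 and 132 and 216 against 3694, 1769.7 and 5056, and Kcnab1, a beta subunit of potassium channels, was 106 against 2722, 1781 and 1321 and 747 against 7937, 11023 and 6673. For these 3 genes all 3 comparison tissues had values more than an order of magnitude above olfactory bulb in the lncRNA design. Scn4b and Itpka rested there on 2 fragments each of the olfactory bulb, with intervals of ± 2.01, and Kcnab1 on 77. Tbata rested on 1 fragment, with an interval of ± 2.85, so the size of these differences is uncertain in that design. Caln1, a neuronal calcium-binding protein, had differences of -4.31 ± 0.07 and -4.08 ± 0.18. Those of Cdh7, a cadherin, were -4.14 ± 2.02 and -3.24 ± 0.09, and those of Skor1, a transcriptional corepressor, -3.95 ± 2.91 and -3.39 ± 0.82. Fam135b and the predicted gene Gm28729 differed by -4.07 and -3.18 and by -4.49 and -2.76. Corin, Mybpc3 and Alpk2, known from heart muscle, were highest in cerebellum among brain tissues and far higher in heart, as for Mybpc3 at 32.4 against 378, 5333 and 125 in the brain and 274399 in heart in the splice junction design.

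Of 9 oligodendrocyte genes 6 were lower and none higher, with medians of -1.37 and -1.11. Mbp, a major protein of compact myelin, was 573 in olfactory bulb against 2651 in whole brain, 1218 in cerebellum and 1176 in cortex in the lncRNA design and 8106 against 21698, 16168 and 15409.5 in the splice junction design. Mobp, Cldn11, Cnp, Mag and Ermn, other proteins of the myelin sheath, were lower too, with differences of -1.05 (Cnp) to -1.72 (Cldn11) in the splice junction design. The calls of Mbp, Mag and Cnp were lost without whole brain, and those of Mag and Cnp also with median centring. No gene of astrocytes (9 tested), microglia (8), endothelium (7) or red blood cells (3) was called. Gfap, the intermediate filament of astrocytes, was 8779 against 9231, 4007 and 3693, and Cx3cr1, the fractalkine receptor of microglia, was 479 against 951, 237 and 715 in the splice junction design.

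Of 6 tested genes of meninges and choroid plexus, Col1a1 and Col1a2, the chains of type I collagen, were higher, by 1.64 ± 0.75 and 2.81 ± 0.10 and 1.45 ± 0.52 and 1.50 ± 0.05. Kl (klotho), of the choroid plexus, was lower, 1.38 against 84.1, 76.1 and 5.61 and 116 against 1883, 2066 and 165, and Folr1 had no fragment in the olfactory bulb library of the lncRNA design. The call of Col1a2 was lost without cortex and with quantile normalization. The 10 housekeeping genes all had negative differences in both designs, none of them called, with medians of -0.68 and -0.32. Their summed level in the lncRNA design was 33368 in olfactory bulb against 67908 in whole brain, 36588 in cerebellum and 38037 in cortex, so whole brain stood apart there.

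**Figure D3:**
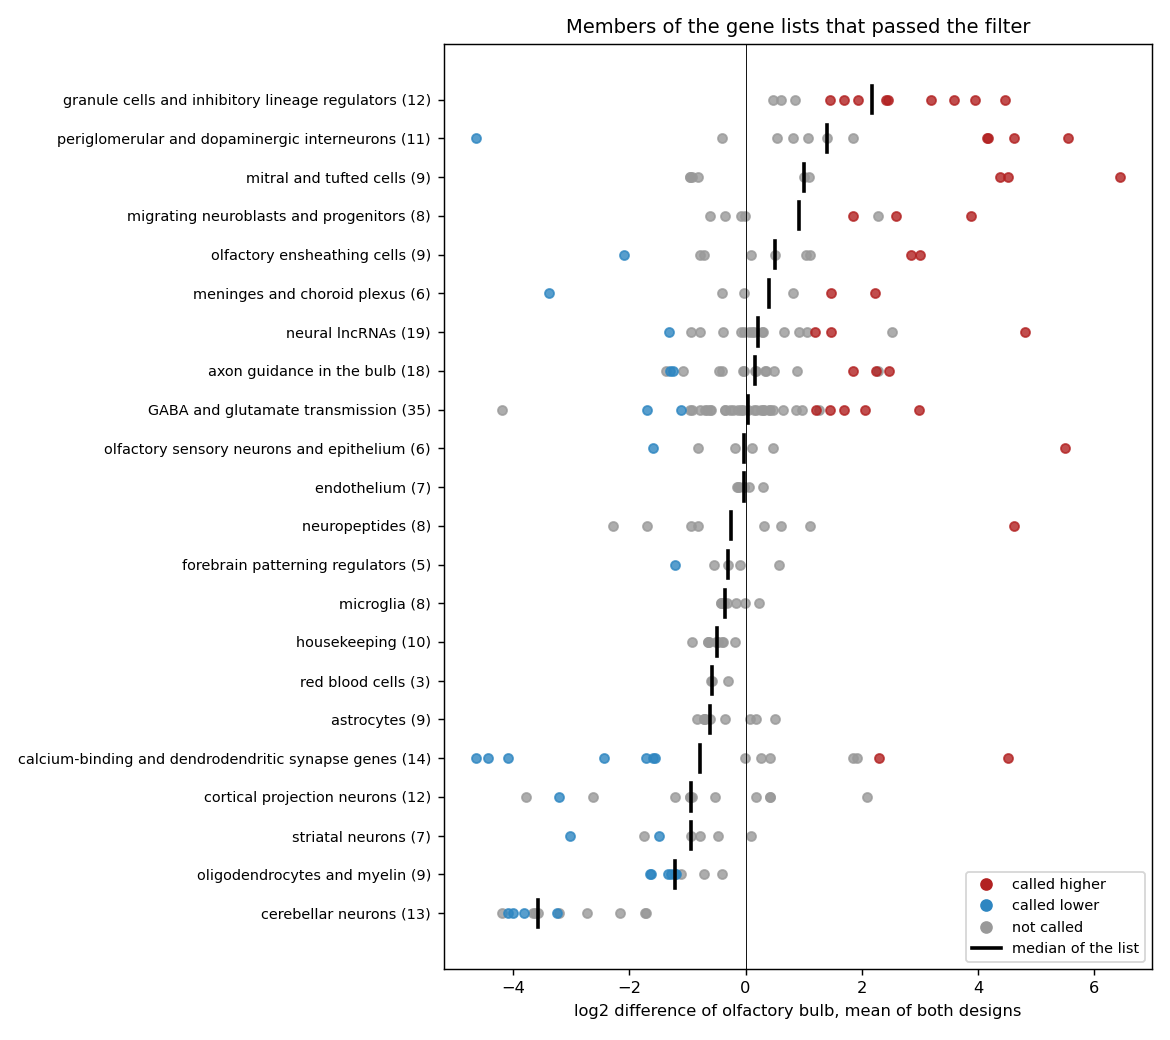
Each point is a gene of a list that passed the filter, placed by its log2 difference in olfactory bulb averaged over both designs, with the number tested in brackets and a black line at the list's median. The medians of the lists for inhibitory, glomerular and output neurons lie to the right of 0 and those for cerebellar, oligodendrocyte, striatal and cortical genes to the left, with members on both sides in several lists. Malat1 is left out because its value in the lncRNA design is listed at 0, and the midbrain list because 1 gene was tested.

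The share of models called higher rose from protein-coding genes to lncRNAs and to models without a GENCODE gene. Of 10006 tested protein-coding models 333 (3.33%) were higher and 502 (5.02%) lower, of 800 lncRNA models 150 (18.8%) and 60 (7.50%), and of 400 models without a GENCODE gene 106 (26.5%) and 17 (4.25%). The size of the upward share depended on scaling and on the comparison tissues. Among lncRNAs 187 models were higher and 47 lower with median centring, 82 and 79 with quantile normalization and 117 and 59 without whole brain. For models without a GENCODE gene the corresponding counts were 129 and 12, 62 and 22, and 58 and 27. For protein-coding genes they were 467 and 376, 209 and 772, and 436 and 470. Without whole brain the upward shares of lncRNAs and of models outside GENCODE were 14.6% and 14.5%. In the comparison without cerebellum, 168 models outside GENCODE (42.0%) were called higher and 26 lower. Of the 106 higher models without a GENCODE gene 97 were single exon models, as were 328 of the 400 tested. Among the tested models outside GENCODE 29.6% of the single exon models were higher, against 12.5% of the spliced ones. Single exon models took a larger share of fragments in olfactory bulb than in any comparison library of either design. This share was 52.2% against 26.4% to 48.5% in the lncRNA design and 2.02% against 0.918% to 1.74% in the splice junction design. The part of this difference between libraries in the calls was not tested.

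**Figure D4:**
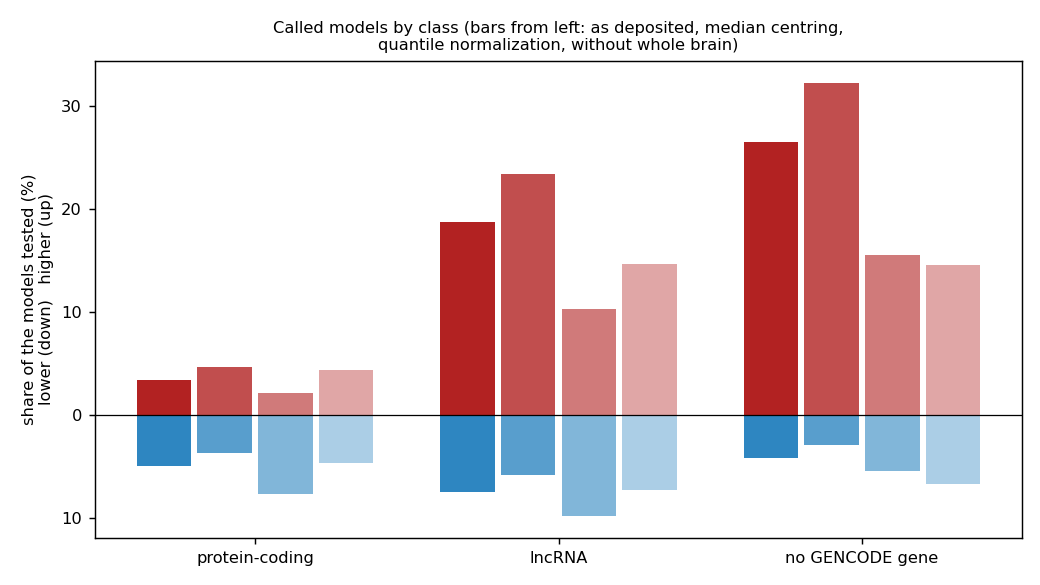
Bars give the share of tested models called higher (red, upward) or lower (blue, downward) in olfactory bulb for each class, and the 4 bars of a class stand for the deposited scaling, median centring, quantile normalization and the comparison without whole brain. Upward shares of lncRNAs run from 10.3% to 23.4% and those of models without a GENCODE gene from 14.5% to 32.3%, while protein-coding genes stay between 2.09% and 4.67%. The comparisons without cerebellum or cortex are not drawn.

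Dlx6os1, also called Evf2, lies in the locus of Dlx5 and Dlx6, on the strand opposite to Dlx6 and the same as Dlx5. It takes part in the regulation of these genes in forebrain interneurons. It was 223948 in olfactory bulb against 29593 in whole brain, 572 in cerebellum and 17608 in cortex in the lncRNA design and 184 against 15.3, 1.53 and 11.2 in the splice junction design, a difference of 5.07 ± 0.05 and 4.54 ± 0.53. The order of the tissues was that of Dlx1 and Sp9 in the lncRNA design. One of its promoters in RefSeq (GRCm38.p6, chr6:6869484-6869783, minus strand) is shown for the core TAATTA of homeodomain binding sites, in capitals, which it holds at 2 places and which is the same on both strands.
Dlx6os1: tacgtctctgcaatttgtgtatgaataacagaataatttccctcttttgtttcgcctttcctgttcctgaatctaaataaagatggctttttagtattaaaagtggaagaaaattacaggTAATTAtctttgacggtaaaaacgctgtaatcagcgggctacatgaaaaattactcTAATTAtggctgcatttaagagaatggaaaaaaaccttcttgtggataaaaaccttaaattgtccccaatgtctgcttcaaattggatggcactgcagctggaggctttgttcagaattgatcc
TAATTA was found in 3.91% of the promoters of protein-coding genes called higher, 2.80% of those called lower, 2.68% of those tested and 5.29% of all 32851 promoters of the same length. The core TGACAG of TALE factors such as Meis2 and Pbx3, searched on both strands, was in 15.3% of the promoters called higher, 18.8% of those called lower, 16.6% of those tested and 19.2% of all. The T-box core AGGTGTGA was in 0 of 307 promoters called higher, 1.12% of those called lower, 0.757% of those tested and 1.28% of all.

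The largest differences among lncRNAs belonged to genes without a described role. D030025E07Rik (chr3:128116914-128231571, minus strand) was 741 in olfactory bulb against 21.5 in whole brain, 2.63 in cerebellum and 1.40 in cortex in the lncRNA design and 83.0 against 0.579, 1.15 and 0.744 in the splice junction design. Gm12688 was 2055 against 203, 7.88 and 5.61 and 111 against 7.23, 0 and 0, and Dbhos, antisense to the gene of dopamine beta-hydroxylase, was 551 against 56.7, 1.31 and 8.42 and 74.1 against 3.47, 0.383 and 1.12. In these 3 genes olfactory bulb was the only brain library above 8 in the splice junction design. Gm20658, G630016G05Rik, 6430710C18Rik, Gm19744, A730043L09Rik and Gm29927 completed the 10, with differences of 4.25 (Gm29927) to 5.25 (6430710C18Rik) over both designs. Lower lncRNAs included Dlx4os, at 5.53 against 499, 1164 and 154 and 0 against 15.0, 63.6 and 6.69, and 6530403H02Rik, at 788 against 26311, 25459 and 3679.7 and 159.5 against 2445, 4771 and 599, together with Gm12992, Gm5083 and 2010001K21Rik.

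Of 19 tested lncRNAs with known neural expression, Dlx6os1, Sox2ot and Kcnq1ot1 were higher and Rmst was lower. Sox2ot, the host transcript of Sox2, was 24787 against 15113, 5027 and 8712 in the lncRNA design and 856 against 397, 229 and 356 in the splice junction design. Rmst, a lncRNA of neurogenesis, was 8133 against 63457, 13344 and 13683 and 797 against 3181, 1368 and 1248, and Kcnq1ot1, an imprinted antisense RNA, was 42628 against 7592, 34035 and 36299.8 and 272 against 21.4, 224 and 228. The calls of Rmst and Kcnq1ot1 were lost without whole brain. Malat1, an abundant nuclear RNA, was listed at 0 in the olfactory bulb and cerebellum libraries of the lncRNA design and was 2036 against 359.7, 1919 and 1485 in the splice junction design, so its difference in the lncRNA design was not read.

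Among spliced models without a GENCODE gene, 72 were tested, 9 were higher and 6 lower. XLOC_037157 (chr4:69167451-69395576, minus strand), with up to 9 exons, stood apart from the rest. It was 3883 in olfactory bulb against 342 in whole brain, 7.88 in cerebellum and 18.2 in cortex in the lncRNA design and 539 against 30.7, 2.30 and 4.46 in the splice junction design, a difference of 6.64 ± 0.47 and 6.02 ± 0.49, and it had no fragment in a nonbrain library. The other 8 differed by 1.06 (XLOC_015980) to 2.46 (XLOC_035269). Without a GENCODE gene and lower were, for instance, XLOC_050304 (chr8:125959889-125965937), at 66.3 against 542, 2237 and 669 and 2.02 against 32.4, 133 and 56.5. With quantile normalization 6 of the 9 higher models were no longer called, namely XLOC_018376, XLOC_015250, XLOC_049106, XLOC_024034, XLOC_015980 and XLOC_049263.

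LncRNA models and models without a GENCODE gene were set beside the protein-coding genes within 50 kb. Of the 150 lncRNAs higher in olfactory bulb 19 (12.7%) had a coding gene called higher in this window, against 16 of the other 650 tested lncRNAs (2.46%). Of the 60 lower lncRNAs 15 (25.0%) had a coding gene called lower, against 39 of 740 (5.27%). For higher models without a GENCODE gene the share was 14.2%, against 2.04% for the rest. All 19 higher lncRNAs lay on the strand opposite to their neighbour, and 14 overlapped it. Among the lower lncRNAs 11 overlapped a neighbour on the opposite strand, 1 lay apart on that strand and 4 lay apart on the same strand. The lncRNA 1700003D09Rik had neighbours on both strands. A model that shared an intron or enough exon with a coding gene on its strand was classed as protein-coding. The strand of overlapping lncRNAs was thus largely set by this rule and is not a result. The higher models without a GENCODE gene that had such a neighbour were all single exon models. Of these, 7 overlapped the neighbour on its own strand, 4 lay apart from it on that strand and 4 lay on the opposite strand. Whether they are separate from the RNA of the neighbour, and whether they are noncoding, was not tested.

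Gm20658 runs opposite to Vipr2, which encodes a receptor of the peptides VIP and PACAP. Gm20658 was 2392 against 64.6, 345 and 12.6 in the lncRNA design and 320.3 against 8.10, 39.1 and 1.86 in the splice junction design, where Vipr2 was 3000.3 against 259.6, 352 and 27.9. In both genes cerebellum ranked above whole brain and cortex there. G630016G05Rik begins 1372 bases from Meis2 on the opposite strand and was 2538 against 139, 15.8 and 139 and 152 against 8.39, 1.53 and 6.69, with cerebellum lowest as for Meis2. Further pairs were Gm19744 with Tenm3, a teneurin adhesion protein, Gm11655 with Prkca, the alpha isoform of protein kinase C, 9330158H04Rik with Chrm2, a muscarinic acetylcholine receptor, and Grip1os1 with Grip1, a scaffold of AMPA receptors. Chrm2 was 1938.6 against 307.2, 44.6 and 324.2 in the lncRNA design, and 9330158H04Rik was 5363 against 1135, 185.1 and 465.

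Shares of a transcript in the value of its gene do not depend on the scaling of a library, so they were compared apart from the levels. Among 18978 transcripts of 2274 gene models with a value of at least 100 in every brain library, 2 had a share higher by at least 30 percentage points in olfactory bulb in both designs and 6 a lower share. None of the 7 genes was called at the level of the gene. Both sides of Snap25 were among them. SNAP-25 is a SNARE protein of the presynaptic membrane, and its gene has a pair of alternative exons of which a transcript uses 1. Snap25-202, which uses the first, made up 57.0% (95% Wilson interval 52.5 to 61.6) of the value of the gene in olfactory bulb in the lncRNA design, against 8.80% in whole brain, 0.000194% in cerebellum and 14.8% in cortex. In the splice junction design it made up 59.5% (55.3 to 63.5) against 12.1%, 3.05% and 9.43%. Snap25-201, with the second exon, made up 38.0% and 35.0% in olfactory bulb and 84.7% to 95.6% in the other libraries. The intervals treat estimated fragments as counts, 452 and 555 of the gene in the olfactory bulb libraries of the lncRNA and splice junction designs.

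The exons that distinguish them are shown because the shift in share rests on them. They are 118 bases long, lie 196 bases apart on the plus strand (GRCm38, chr2:136769743-136769860 and chr2:136770057-136770174) and are exon 5 of 8 in transcripts of GENCODE M21. The 31 bases at which they differ are in capitals.
Snap25-202: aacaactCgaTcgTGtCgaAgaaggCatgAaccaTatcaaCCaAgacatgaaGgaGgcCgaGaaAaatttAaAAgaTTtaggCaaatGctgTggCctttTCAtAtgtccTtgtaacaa
Snap25-201: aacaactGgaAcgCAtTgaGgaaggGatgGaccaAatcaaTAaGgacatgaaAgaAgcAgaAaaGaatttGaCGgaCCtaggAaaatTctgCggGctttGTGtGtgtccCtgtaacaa
They are identical at 73.7% of their bases.

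Ndrg4, a gene of neuronal and cardiac cells and a member of the NDRG family, also shifted. Ndrg4-202 made up 36.1% (lncRNA design) and 39.5% (splice junction design) of its gene in olfactory bulb, against 63.3% to 83.0% in the other brain libraries. A transcript that starts close to it and lacks an exon of 39 bases made up 32.7% and 37.8% in olfactory bulb and 4.22% to 16.9% in the others. That exon, number 14 of 15 in Ndrg4-202 (GRCm38, chr8:95712325-95712363, plus strand), is shown because it is what sets the transcripts apart.
Ndrg4-202: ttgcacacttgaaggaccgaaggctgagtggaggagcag
The shifts of Snap25 and Ndrg4 met the rule without whole brain, without cerebellum and without cortex, and their genes were too low for a minimum value of 500.

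**Figure D5:**
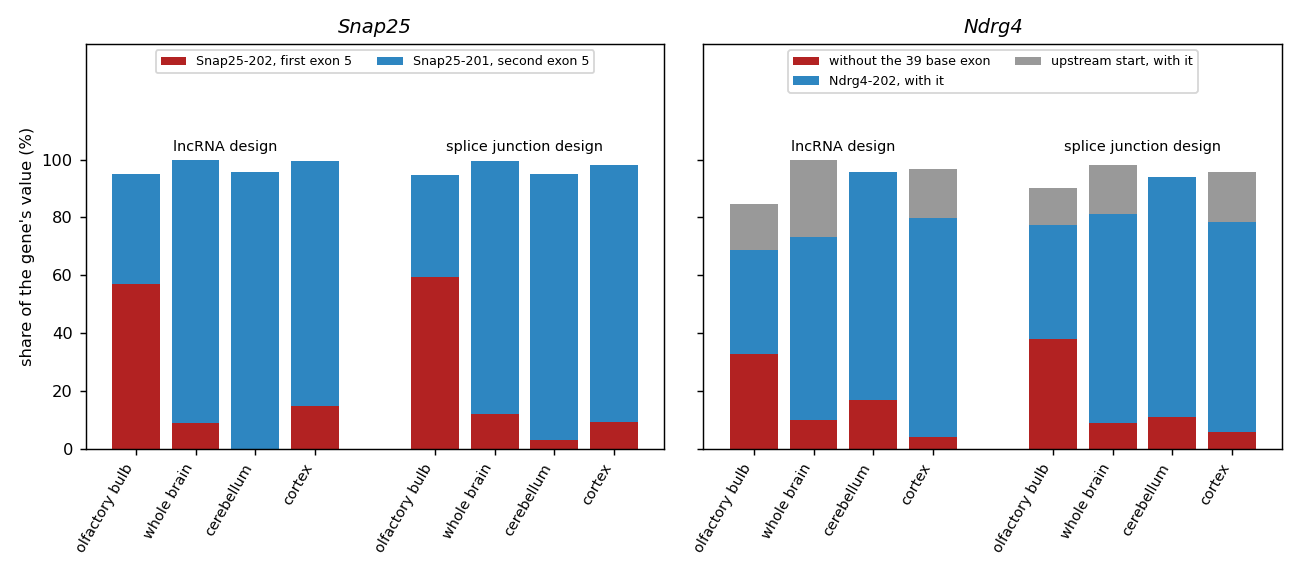
Bars give the share of the value of Snap25 (left) and Ndrg4 (right) in percent taken by each named transcript in the 4 brain libraries of each design, with a further Ndrg4 transcript from an upstream start in grey and the remaining transcripts not drawn. Snap25-202 takes 57.0% and 59.5% in olfactory bulb and at most 14.8% elsewhere, and the Ndrg4 transcript without the exon takes 32.7% and 37.8% against at most 16.9%.

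The other 5 shifts concerned transcripts whose shares also varied between the comparison tissues or between designs. A transcript of Pms1, a mismatch repair gene, made up 35.9% and 52.6% in olfactory bulb and at most 15.5% in the others. Ulk2-201, of an autophagy kinase, was 64.6% against 95.9% to 96.2% in the splice junction design. Transcripts of Fech, the last enzyme of heme synthesis, and of Ankrd12 were lower as well, with shares of 6.76% and 20.8% in olfactory bulb against 37.5% to 44.3% and 45.6% to 81.9% in the splice junction design. Without whole brain 1 of the 2 higher and 3 of the 6 lower shares kept their call, and those of Pms1, Ulk2 and Ankrd12 were among the ones lost.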

How the data were processed

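The authors aligned reads with TopHat2 to GRCm38 with GENCODE annotation, assembled transcripts with Cufflinks 2.2.1, merged the assemblies, and made the deposited signal with Cuffnorm 2.2.1, as estimated fragments per transcript scaled between libraries. Values were summed per gene model of the merged assembly, and the ERCC controls were left out. Gene sums were whole multiples of 1 step per library, which gave the fragments behind each value and the counting intervals, in which a library without a fragment was given 1. These intervals cover counting error only.

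Gene models with a mean of at least 10 over the 4 brain libraries in each design were tested, on log2(value + 1), with the call described above. The transcript table held 0 value columns without a sample. The 309 genes of 23 lists were measured as gene models, except that 41 of the 340 list entries fell in a model joining several genes and were measured over transcripts sharing an intron with the gene. Tubb3 and Ttr had no gene model. The named genes were the list members, the 15 protein-coding genes with the largest differences each way (models of a single GENCODE symbol, a value of at least 50), the 10 higher and 5 lower lncRNAs and spliced models without a GENCODE gene (at least 20), and called neighbours and transcript shares. Some pairs and single genes outside this rule were chosen after their values were seen. A few genes and a transcript that the rule names are not reported here. Members and lists were chosen with earlier results of these data known. With 1 library per tissue and design, no test, SD or p-value was possible, and a count model on the recovered fragments was not fitted. Genes that share reads with near-identical copies, such as Olfr genes, are uncertain. Alternatives changed the pseudocount, filter, scaling, comparison tissues, call, design and unit. Python 3.11.15, pandas 2.3.3, NumPy 2.4.6, SciPy 1.17.1 and Matplotlib 3.10.9 were used. Promoters are from RefSeq and exons from GENCODE M21.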

Additional observations from a re-analysis of the deposited data

How the results depend on the processing

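Without a filter 2288 models were higher in olfactory bulb, and with a mean of at least 50 there were 236 higher and 348 lower. Quantile normalization gave 366 higher and 890 lower, and the comparison without cerebellum 950 lower. A difference of at least 2 was met by 200 and 138 models. The lncRNA design alone gave 7436 higher and 2323 lower, and the splice junction design alone 2290 and 1091, since either alone lets more models pass the filter and asks for no second capture. The remaining alternatives stayed within 1.5 times of 617 and 590. A scaling to equal library totals without the ERCC controls, chosen after seeing the data, gave 721 and 578. Transcript shares were few under each alternative. With a gene value of at least 500 there was 1 higher and 0 lower, at 20 percentage points 10 and 15, without cerebellum 6 and 15, without whole brain 4 higher and without cortex 12 lower.

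Of 112 named genes that were called, 108 kept their call with median centring, 98 with quantile normalization, 101 without whole brain, 104 without cerebellum, 108 without cortex and 104 with a pseudocount of 10. No named gene that was called changed sign with median centring or quantile normalization. The other alternatives could not show a change, because a called gene lies beyond each comparison tissue, which fixes its sign there. No paired analysis was possible because each tissue has 1 library per design. Depth limits genes with few fragments, above all in the lncRNA design, where a factor such as Tbx21 rested on 9 fragments in olfactory bulb.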
